A study of Sus scrofa with 8 samples.

Results

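The collagen genes of pig heart were followed across all 8 libraries of a comparison of Tibetan and Yorkshire pigs. Members were the rows of the table of all genes whose gene name has the form COL, a number, A and a number. The rule found 40 of 18975 rows, which carry 36 symbols, since COL1A1, COL1A2, COL4A3 and COL17A1 each stand on 2 rows of the draft assembly. They were grouped by class into 11 rows of fibrillar collagens, 8 of FACIT collagens, 6 of basement membrane collagens, 5 of beaded filament collagens, 4 of transmembrane collagens, 3 of short chain network collagens, 2 of multiplexin collagens and 1 anchoring fibril collagen.

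The study sequenced heart RNA of male pigs aged 6 months to ask which genes differ with breed and altitude. Tibetan pigs, a breed native to high altitude, were raised at highland (TH, 3000 m) or at lowland (TL, 100 m), and Yorkshire pigs, a commercial breed, were raised at the same places (YH, 3000 m, and YL, 100 m). Each group has 2 libraries. For each, RNA of 4 pigs was mixed in equal amounts, and the error given here is therefore the spread between such pools. The groups carry no drug or engineered allele, and the altitude and the site of rearing cannot be told apart. The region of the heart is not given in the sources used here, and the descriptions of YL1 and YL2 name the group file of TL, so both were taken as YL from their titles and breed.

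Collagens are chains that wind around each other into a helix. Fibrillar types I, III and V build the tensile fibres of the heart, made mostly by its fibroblasts, and FACIT collagens sit on the surface of those fibres. Type IV collagen forms the sheet-like network of basement membranes around muscle cells and capillaries, type VI forms beaded filaments next to it, and the multiplexins XV and XVIII link basement membranes to the fibres.

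Levels are given in FPKM, a count of fragments divided by transcript length and by the depth of the library, which allows genes to be set side by side. Reads on genes were 15686825 to 26722609 per library, and reads of a gene are given where a level is low. Markers of the heart muscle cell were high in every library, with sums over 8 rows of 25185 to 43146 FPKM in 7 libraries and 15783 in YL2. Kidney markers summed to 4914 FPKM in YL2 and to at most 17.3 in any other library. Atrial markers summed to 6770 and 5547 FPKM in TH1 and TH2 and to 441 to 2760 elsewhere, with NPPA, the atrial natriuretic peptide, at 2263 and 2146 FPKM in TH and at 23.1 to 108 in the other 6 libraries. MYL7 and SLN were also higher in both TH libraries than in any other. MYL4 was highest in TL, at 8.85 and 21.4 FPKM against 7.59 and 6.73 in TH. PAM overlapped, at 159 and 171 FPKM in TH and 51.9 to 169 elsewhere. Mitochondrial genes held 57.7% (YH2) to 87.6% (TH1) of the FPKM of a library. Their part in the results on collagens was not tested, apart from the values without a library given beside them.

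Of the 40 rows, 20 reached 1 FPKM in at least 2 libraries and were tested together with all 11913 such genes. The other 20 were not tested, and 11 of these had fewer than 20 reads in every library. Counts and medians below describe the tested rows and not all members, and COL28A1 passed the filter through the TL libraries alone. Each tested row is called a gene below, so COL1A1 enters these counts with 2 rows. The level of a tested collagen gene spanned a wide range, from a mean of 96.6 FPKM for COL3A1 to 0.650 for COL28A1, and 12 rows had a mean of at least 10 FPKM.

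**Figure D1:**
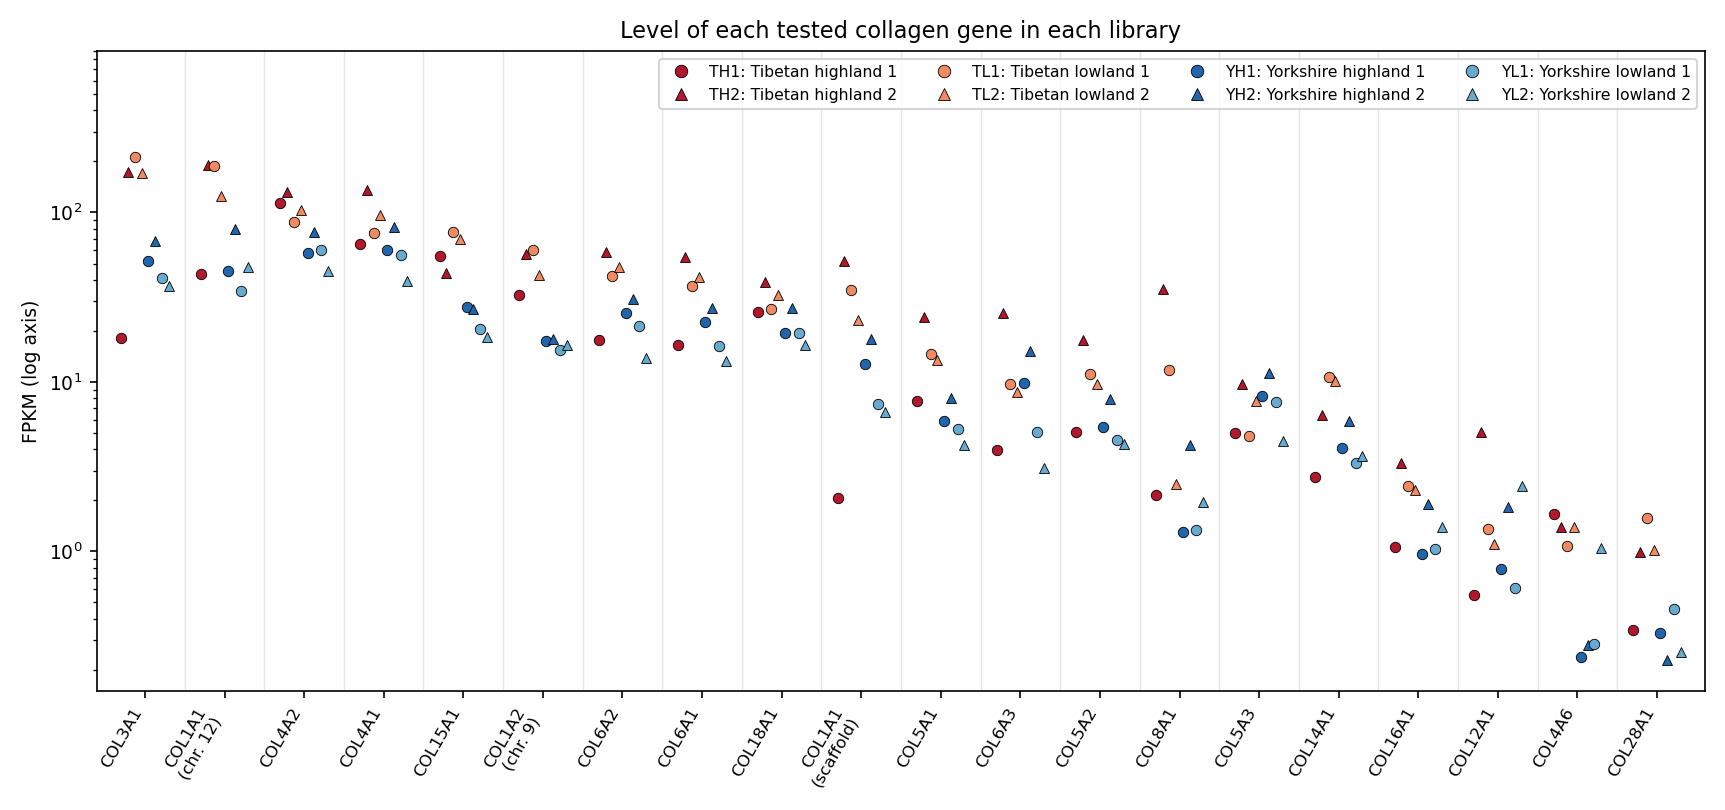
FPKM of the 20 tested collagen genes (log axis), ordered by their mean, with 1 point per library, coloured by group and shaped by replicate number. For most fibrillar genes TH1 lies far below TH2, as for COL3A1 at 18.2 against 172 FPKM, while the TL points lie above the YL points for 18 of the 20 genes.

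In lowland pigs the collagen genes were higher in the Tibetan than in the Yorkshire breed. The log2 fold change of TL to YL was above 0 for 19 of the 20 tested genes, with a median of 1.20 against 0.02 over all genes tested, and COL12A1 was the exception at -0.08. Both TL libraries lay above both YL libraries for 18 of the 20, where 23.8% of all genes tested did so, and 0 of the 20 lay wholly below, against 17.8% of all genes. None of the 20 was called at an adjusted p under 0.01 (limma, Benjamini-Hochberg), where 0.00839% of all genes were, and 11 of the 20 had an unadjusted p under 0.05, all with the higher level in TL, against 8.94% of all genes. These counts include COL28A1, which was tested only through its level in TL. After scaling each library to the same FPKM sum the collagen median was 0.66, against -0.23 over all genes. In RNA of whole tissue, a smaller number of fibroblasts and less collagen RNA per fibroblast cannot be told apart.

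In highland pigs the breed comparison rested on the choice of TH library. The median log2 fold change of TH to YH was 0.42 against -0.03 over all genes, and 15 of the 20 genes were above 0. The TH libraries lay above both YH libraries for 5 of the 20, against a background of 25.2%, and lay below for 0, against 27.3%. Limma called 0 of the 20, with 0.0336% of all genes called, and 4 of the 20 had an unadjusted p under 0.05, a share near the 16.2% of all genes. With TH1 left out the median was 1.01 and all 20 genes were higher in TH than in YH, and with TH2 left out the median was -0.26. Scaling each library to the same FPKM sum, which shifts the median of all genes to -0.50, turned the collagen median to -0.22, still 0.28 above that of all genes.

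The altitude comparison is given for each breed. Within Yorkshire pigs, 17 of the 20 genes were higher at highland, with a median log2 fold change of YH to YL of 0.47 against 0.03 over all genes. The libraries did not overlap for 13 of them with YH higher, against 21.9% of all genes, and for 1, COL4A6, with YH lower, against 14.4%. The latter rests largely on YL2, at 1.04 FPKM against 0.286 in YL1. Limma called 0 of the 20 and 0% of all genes in YH to YL, and 0 of the 20 had an unadjusted p under 0.05, against 5.97% of all genes. The median was 0.68 without YH1 and 0.21 without YH2. Within Tibetan pigs, 8 of the 20 were higher at highland and the median of TH to TL was -0.14, against -0.02 over all genes. The TH libraries lay above both TL libraries for 2 genes, against 24.0% of all genes, and below both for 3, against 24.5%. Limma called 0 of the 20 in TH to TL, with 0.0504% of all genes called, and 2 of the 20 had an unadjusted p under 0.05, a share near the 11.3% of all genes. Without TH1 the median of TH to TL was 0.41.

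The interaction, which is the altitude difference in Tibetan pigs less that in Yorkshire pigs, was below 0 for 16 of the 20 genes, with a median of -0.47 against -0.01 over all genes. It was called for 0 of the 20 and for 0.0336% of all genes, and 2 of the 20, COL14A1 and COL15A1, had an unadjusted p under 0.05, a share near the 10.9% of all genes. Without TH1 the median of the interaction was -0.01 and 10 of the 20 genes were above 0. With 2 libraries in each group the smallest two-sided p of an exact permutation test is 0.333. The limma p-values rest on 4 residual degrees of freedom of each gene, pooled over the 4 groups, and on 2.83 prior degrees of freedom from the other genes.

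**Figure D2:**
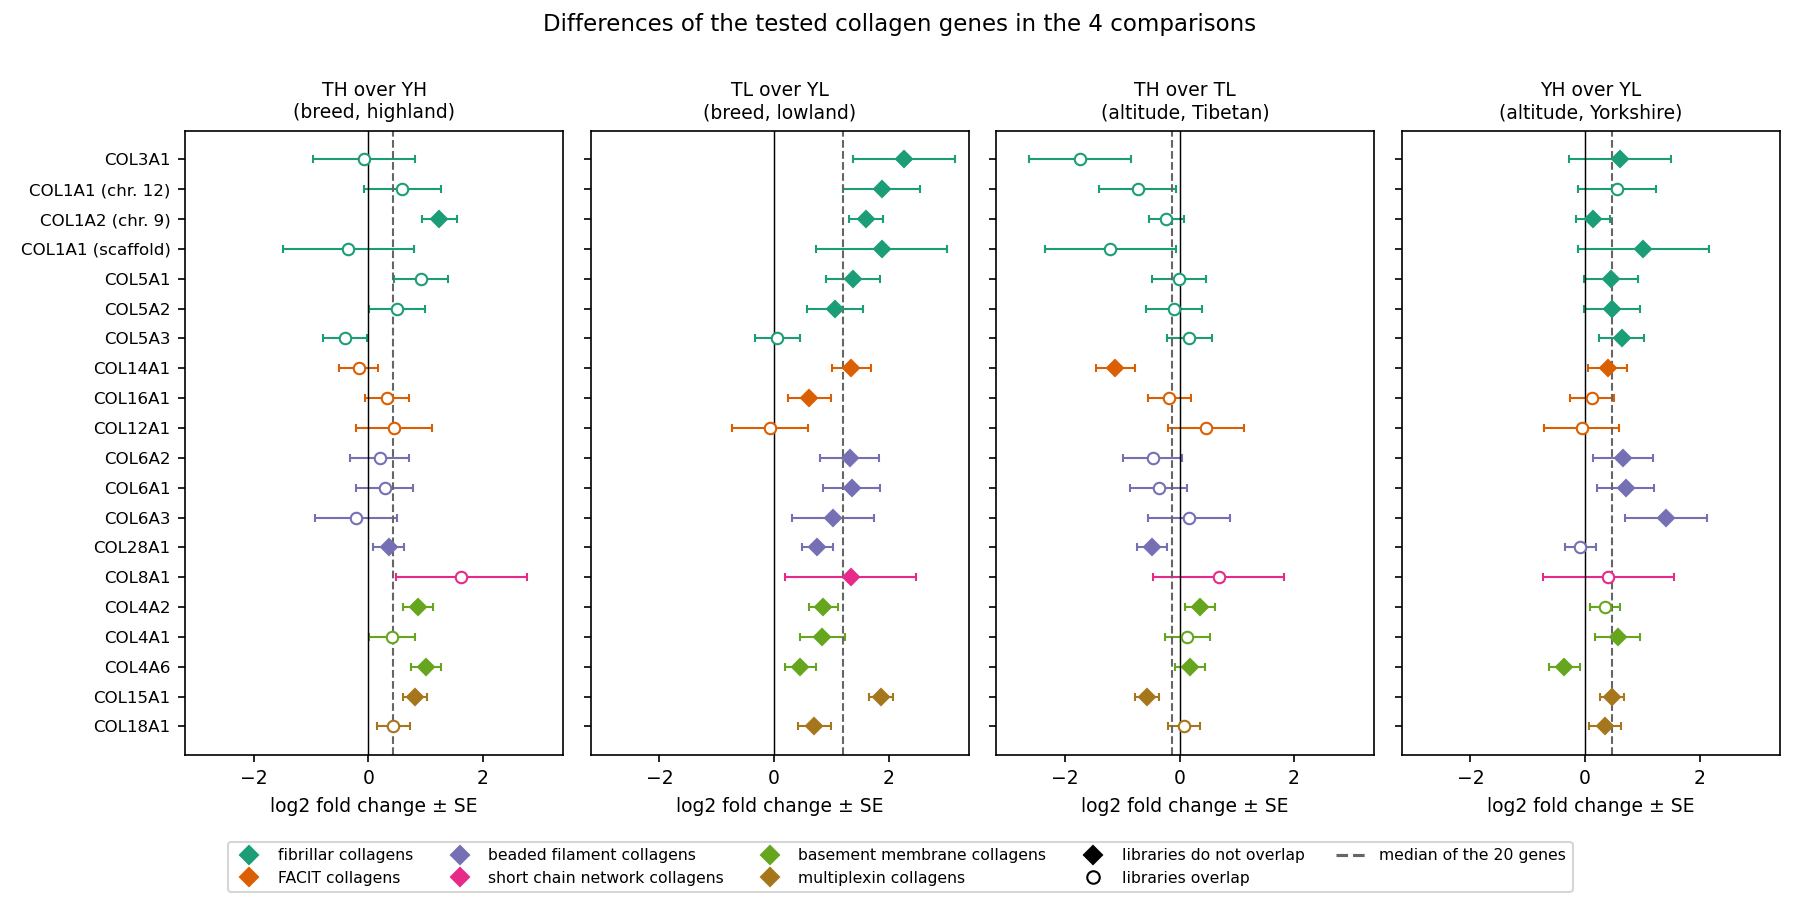
Log2 fold change with its standard error (limma, log2(FPKM + 1)) of the 20 tested collagen genes in the 4 comparisons, coloured by class, with filled diamonds where the libraries of the groups do not overlap and the dashed line at the median. In TL over YL the points lie to the right of 0 for 19 of the 20 genes, around the median of 1.20, and in TH over TL they lie on both sides of 0.

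Among the fibrillar genes, COL3A1, the chain of type III collagen and the member with the highest mean over the 8 libraries, stands at chr15:104067017-104105776 of Sscrofa10.2. Its level was 18.2 and 172 FPKM in TH against 213 and 171 in TL, and 52.1 and 68.1 in YH against 41.0 and 36.8 in YL. TL lay wholly above YL, TH2 reached the TL level, and TH1 was the lowest of all 8 libraries. COL3A1 was the most abundant member in TL1 and TL2, while COL4A2 led in TH1 and YL1, COL1A1 in TH2 and YL2 and COL4A1 in both YH libraries. The log2 fold change of TL to YL was 2.27 ± 0.89 (SE, n = 2 and 2 libraries; limma adjusted p = 0.513). That of TH to YH was -0.07 ± 0.89, and it was 1.52 without TH1 and -1.66 without TH2. That of TH to TL was -1.73 ± 0.89, and it was -0.15 without TH1 and -3.32 without TH2.

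COL1A1, the major chain of type I collagen, stands on 2 rows at different places of the draft assembly. The row at chr12:26469601-26470127 had 43.3 and 192 FPKM in TH against 187 and 124 in TL, and 45.4 and 80.3 in YH against 34.6 and 47.8 in YL. The row on scaffold GL896296.2, bases 15138 to 19536, had 2.05 and 51.9 FPKM in TH against 34.7 and 23.3 in TL, and 12.8 and 18.0 in YH against 7.36 and 6.68 in YL. Both rows were higher in TL than in YL in every library, with log2 fold changes of 1.88 ± 0.67 and 1.88 ± 1.14, and both were far lower in TH1 than in TH2. The first row is short and held 53 to 314 reads per library, and the second held 35 reads in TH1 and 856 in TH2.

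COL1A2, the partner chain of type I collagen (chr9:81357191-81393120), varied less between the TH libraries. It had 32.7 and 56.6 FPKM in TH against 59.8 and 42.9 in TL, and 17.4 and 17.9 in YH against 15.4 and 16.5 in YL. All 4 Tibetan libraries lay above all 4 Yorkshire libraries, TH and TL overlapped, and the Yorkshire libraries stayed close together. The log2 fold change was 1.61 ± 0.30 for TL to YL (adjusted p = 0.209, limma) and 1.24 ± 0.30 for TH to YH (adjusted p = 0.157, limma), and the latter was 0.30 after scaling to the FPKM sum. A further row named COL1A2, on scaffold JH118748.1, had 0 to 0.153 FPKM and at most 15 reads.

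The type V chains, which control the width of type I fibres, comprise a pair with like levels in each library and a chain with another order of libraries. COL5A1 had 7.73 and 24.3 FPKM in TH against 14.6 and 13.4 in TL, and 5.86 and 8.07 in YH against 5.29 and 4.25 in YL. COL5A2, which lies 17.1 kb from COL3A1 on chromosome 15, had 5.10 and 17.6 FPKM in TH against 11.1 and 9.73 in TL, and 5.45 and 7.89 in YH against 4.56 and 4.33 in YL. For both, TL lay above YL and TH1 lay near the Yorkshire libraries, with log2 fold changes of TL to YL of 1.38 ± 0.47 and 1.07 ± 0.49. COL5A3 had 4.99 and 9.77 FPKM in TH against 4.81 and 7.73 in TL, and 8.22 and 11.3 in YH against 7.58 and 4.46 in YL, so that TL and YL overlapped and only YH lay above YL without overlap. The remaining fibrillar chains are those of cartilage: COL11A1, COL11A2 and COL2A1 had at most 0.108, 0.0956 and 0.0129 FPKM, with at most 23, 14 and 2 reads in a library.

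Over the 11 fibrillar rows, the summed level was 114 and 524 FPKM in TH against 525 and 393 in TL, and 147 and 212 in YH against 116 and 121 in YL. TH1 was the lowest library and TH2 was within 1 FPKM of TL1. The sum was 4.595 times as high in TH2 as in TH1, against 16.4 times for the short chain network class, 3.62 for the beaded filament class and 3.18 for the FACIT class. The ratio was 1.49 for the basement membrane class, 1.33 for the transmembrane class, 1.02 for the multiplexins and 0.597 for the anchoring fibril gene. The short chain value rests on COL8A1, whose gap in scaled reads was 7.42-fold.

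**Figure D3:**
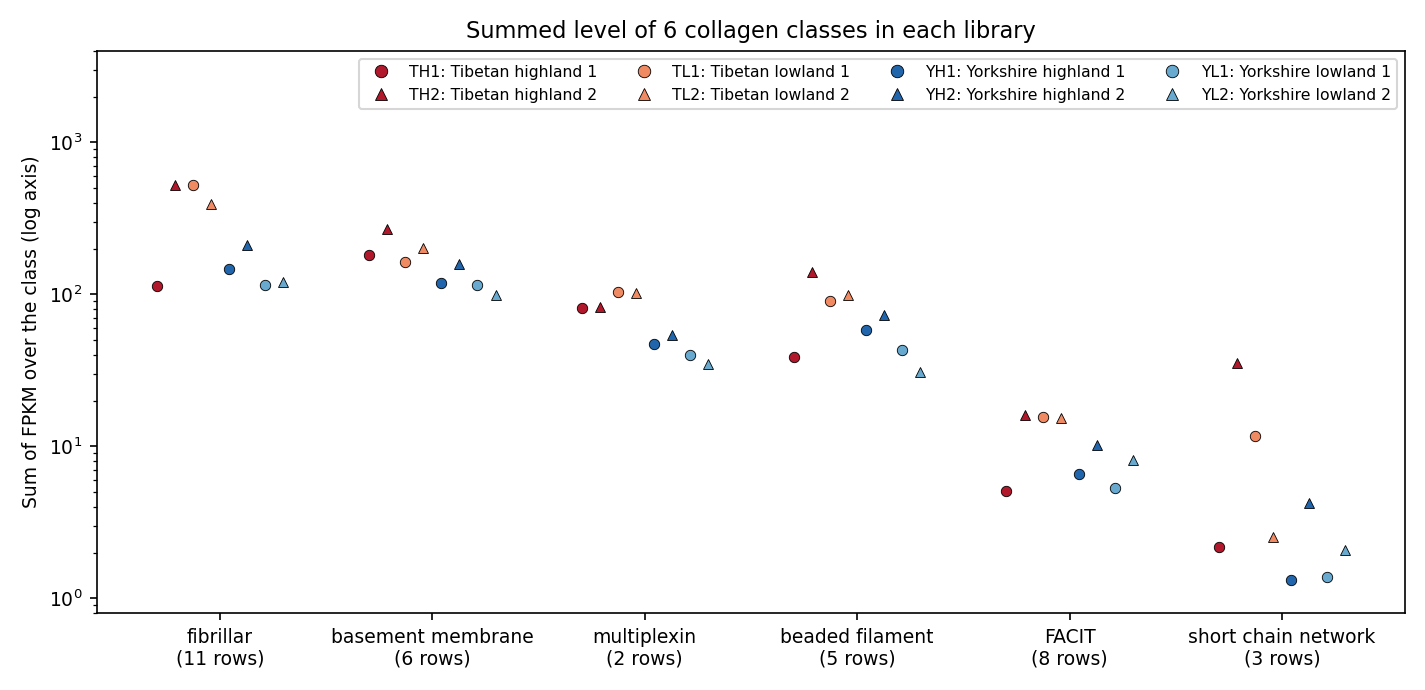
Sum of FPKM (log axis) over the rows of 6 collagen classes, with 1 point per library, coloured by group and shaped by replicate number. The fibrillar sum of TH1, 114 FPKM, lies with the YL libraries at 116 and 121, whereas both TH libraries lie above the Yorkshire libraries for the basement membrane and multiplexin classes.

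The FACIT genes on the fibre surface included COL14A1, which binds to type I fibres. COL14A1 had 2.76 and 6.38 FPKM in TH against 10.7 and 10.18 in TL, and 4.09 and 5.91 in YH against 3.33 and 3.66 in YL. TL was the highest group without overlap, and TH overlapped with YH. The log2 fold change was 1.35 ± 0.34 for TL to YL (adjusted p = 0.301, limma) and -1.12 ± 0.34 for TH to TL (adjusted p = 0.313, limma), and the latter was -0.63 without TH1. COL16A1 had 0.968 to 3.33 FPKM and COL12A1 0.556 to 5.07, both with their highest level in TH2, and of these COL16A1 was higher in both TL than in both YL libraries.

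The row named COL9A3 (ENSSSCG00000001500, on chromosome 7) carries the symbol COL21A1 in the table of gene names, and its level of 0 to 0.964 FPKM cannot be given to either gene with certainty. The row named COL21A1, on chromosome 6, lies 109 kb from COL16A1 and had 0.255 to 0.656 FPKM. COL9A2 had at most 0.0985 FPKM, and COL9A1 and COL19A1 were listed at 0 in 7 libraries, with 1 read each in YL2.

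The beaded filament genes COL6A1, COL6A2 and COL6A3 encode the chains of type VI collagen. COL6A1 had 16.6 and 54.9 FPKM in TH against 37.0 and 41.7 in TL, and 22.5 and 27.3 in YH against 16.3 and 13.3 in YL. COL6A2 had 17.7 and 58.1 FPKM in TH against 42.3 and 47.7 in TL, and 25.5 and 30.7 in YH against 21.4 and 13.9 in YL. For both, TL lay above YH and YH above YL without overlap, whereas TH1 was near YL and TH2 above TL. Their log2 fold changes of TL to YL were 1.36 ± 0.50 and 1.33 ± 0.52 (adjusted p = 0.483 and 0.513, limma).

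COL6A3 was the lowest of these 3 chains, with 3.95 and 25.6 FPKM in TH against 9.71 and 8.67 in TL, and 9.86 and 15.3 in YH against 5.05 and 3.09 in YL. In contrast to its partners it was higher in both YH than in both TL libraries, and its log2 fold change of YH to YL, 1.42 ± 0.72 (adjusted p = 0.784, limma), was the largest of any tested collagen gene in that comparison. COL28A1, a chain related to type VI, had 0.343 and 0.990 FPKM in TH against 1.58 and 1.02 in TL, and 0.330 and 0.228 in YH against 0.459 and 0.256 in YL. It lay higher in TL than in YL, with 149 and 110 reads against 33 and 32, and a log2 fold change of 0.75 ± 0.27. That difference was 0.30 after scaling to the FPKM sum and 1.87 with scaled reads. COL28A1 was tested only because both TL libraries reached 1 FPKM, so the filter favoured a higher level in TL. COL6A5 had at most 0.261 FPKM.

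Of the short chain network class, COL8A1, known from blood vessel walls, was the member tested. It had 2.15 and 35.4 FPKM in TH against 11.7 and 2.49 in TL, and 1.31 and 4.24 in YH against 1.34 and 1.95 in YL. TH2 stood above all other libraries, and both TL and TH lay above YL without overlap. The FPKM of COL8A1 overstate part of this spread relative to its reads: TH2 exceeded TH1 by a factor of 16.5 in FPKM and of 7.42 in the scaled reads deposited beside them, and TL2 had 0.213 of the level of TL1 in FPKM and 0.568 in scaled reads. The FPKM per scaled read varied 2.86-fold between libraries for COL8A1 and at most 1.64-fold for any other tested member. COL8A2 had at most 10 reads in a library, and COL10A1, the chain of hypertrophic cartilage, had 1 read in YL1 and none elsewhere.

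The basement membrane chains COL4A1 and COL4A2 lie next to each other on chromosome 11 and form a joint molecule. COL4A1 had 65.2 and 136 FPKM in TH against 75.4 and 97.1 in TL, and 60.3 and 82.4 in YH against 56.0 and 39.6 in YL. COL4A2 had 114 and 131 FPKM in TH against 87.7 and 104 in TL, and 57.5 and 76.6 in YH against 59.7 and 45.3 in YL. For COL4A2 the 4 Tibetan libraries lay above the 4 Yorkshire libraries and TH lay above TL, while for COL4A1 the TH and YH libraries overlapped. The log2 fold change of COL4A2 was 0.87 ± 0.26 for TH to YH (adjusted p = 0.200, limma), which turned to -0.10 after scaling to the FPKM sum, and 0.86 ± 0.26 for TL to YL (adjusted p = 0.382, limma).

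COL4A6, a minor type IV chain, was low and divided the breeds at highland. It had 1.67 and 1.40 FPKM in TH against 1.08 and 1.39 in TL, and 0.237 and 0.281 in YH against 0.286 and 1.04 in YL. The reads behind these values were 236 and 194 in TH against 40 and 57 in YH, and the mean FPKM was 5.92 times as high in TH. On the log2(FPKM + 1) scale, which understates changes of low genes, the log2 fold change of TH to YH was 1.01 ± 0.27 (adjusted p = 0.176, limma). It was 0.27 after scaling to the FPKM sum, 2.18 with a pseudocount of 0.1 and 2.46 with scaled reads. YL2 stood apart from YL1 and lay just below the TL libraries.

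COL4A3 and COL4A4, whose chains are known from the basement membrane of the kidney glomerulus, were detected in YL2 and hardly elsewhere. The chromosome 15 row of COL4A3 had 3.04 FPKM in YL2, from 377 reads, and at most 1 read in each other library. Its row on scaffold GL896300.1 had 8.57 FPKM in YL2, from 587 reads, and at most 3 reads elsewhere. COL4A4, which lies 123 kb from COL4A3, had 2.005 FPKM in YL2, from 493 reads, and at most 2 reads elsewhere.

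These 3 rows did not pass the filter, since only 1 library reached 1 FPKM. In the same library the kidney genes UMOD and MIOX had 947 and 661 FPKM, while in the other 7 libraries UMOD was at 0 to 0.811 FPKM and MIOX at 0 to 0.390. The row that the table of gene names gives as COL4A5, which the naming rule leaves out, had 2.27 FPKM in YL2, within the range of 0.470 to 4.26 in the other libraries.

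**Figure D4:**
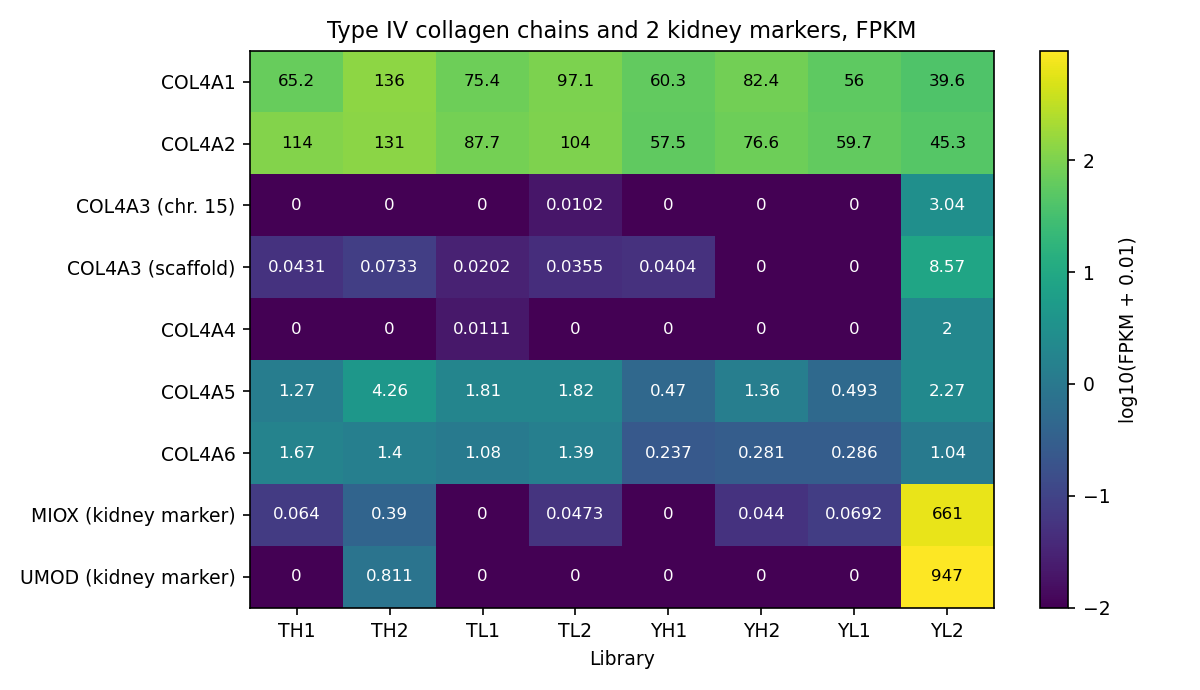
FPKM of the type IV chains and of 2 kidney markers in each library, printed in each cell and coloured by log10(FPKM + 0.01). COL4A3 and COL4A4 reach at least 2.005 FPKM in YL2 and stay at or below 0.0733 in the other 7 libraries, where the kidney markers stay at or below 0.811.

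The breed difference at lowland was of a like size without this library. With YL2 left out, 19 of the 20 tested collagen genes were higher in TL than in YL1, and the median log2 fold change was 1.03 in place of 1.20. The exception was then COL5A3, at 7.58 FPKM in YL1 against 4.81 and 7.73 in TL, and no longer COL12A1.

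Of the multiplexin genes, COL15A1 had the smallest standard error of any tested member. COL15A1 (chr1:269014796-269023294), a collagen of the outer basement membrane zone of muscle and capillaries, had 55.3 and 43.7 FPKM in TH against 77.2 and 70.0 in TL, and 27.9 and 27.1 in YH against 20.6 and 18.3 in YL. On this row the order of the groups was TL, TH, YH and YL with no overlap between any neighbours, whereas the second COL15A1 row, described with the row ratios, had 1.36 FPKM in TH1, below every Yorkshire library (2.54 to 8.85). The log2 fold change was 1.86 ± 0.21 for TL to YL (adjusted p = 0.12, limma) and 0.82 ± 0.21 for TH to YH (adjusted p = 0.171, limma), and the latter was -0.13 after scaling to the FPKM sum. The former was called only with YL1 left out, at 1.94 and an adjusted p of 0.00737 (limma). That setting compares TL with YL2 alone, the library with kidney markers at 4914 FPKM, takes its spread from the other groups, and called 305 genes in place of 1. The interaction was -1.05 ± 0.30 (adjusted p = 0.347, limma).

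COL18A1, the source of endostatin, varied less, with 25.7 and 38.7 FPKM in TH against 27.1 and 32.7 in TL, and 19.6 and 27.2 in YH against 19.3 and 16.5 in YL. TL lay above YL and YH above YL, and TH overlapped with YH and with TL. Its log2 fold change of TL to YL was 0.71 ± 0.28 (adjusted p = 0.524, limma), and 0.35 after scaling to the FPKM sum.

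The anchoring fibril gene COL7A1, typical of skin, had 0.477 to 1.21 FPKM, with 1.21 in TH1. The transmembrane collagens were at the edge of detection, with 10 to 89 reads per library for COL13A1, 1 to 7 for COL23A1 and at most 6 for either COL17A1 row, and none was tested. COL13A1 reached its highest level, 0.722 FPKM, in YH2.

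The gap between the TH libraries differed widely among the members. TH2 exceeded TH1 for 18 of the 20 tested members, by a median log2 difference of 1.30 against -0.01 over all genes tested, and by more than 1 for 12 of the 20 against 8.52% of all genes. The exceptions were COL15A1 and COL4A6, which were higher in TH1. The corresponding median log2 difference between the libraries of a group was -0.13 in TL, 0.43 in YH and -0.16 in YL. The gap in FPKM was widest for the scaffold row of COL1A1, at 25.3-fold, followed by COL8A1 at 16.5-fold, COL3A1 at 9.47-fold and COL12A1 at 9.11-fold. In scaled reads the order was the scaffold row of COL1A1 at 24.9-fold, COL3A1 at 9.18-fold, COL12A1 at 8.58-fold and COL8A1 at 7.42-fold. In FPKM the gap was 1.16-fold for COL4A2.

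Rows of 1 collagen gene did not keep their ratio in TH1 for COL1A1 and COL15A1. The chromosome 12 row of COL1A1 had 21.1 times the FPKM of the scaffold row in TH1, and 3.55 to 7.16 times in the other 7 libraries. COL15A1 shows the same with a row that the naming rule leaves out and that the table of gene names gives as COL15A1 (chr1:269048170-269072184). That row had 1.36 FPKM in TH1 and 13.6 in TH2, so that the named row exceeded it by 40.7 times in TH1 and by 3.06 to 8.14 times elsewhere. Read from this second row, COL15A1 was as low in TH1 as the fibrillar genes were, whereas the named row was higher in TH1 than in TH2. The rows of SPARC, a collagen-binding protein, had a ratio of 1.86 in TH1 and of 1.88 to 2.41 in the other libraries, so that it was the lowest in TH1 by a narrow margin.

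Some ratios between partner chains stood apart in TH1 as well. COL3A1 was at 0.556 of COL1A2 in TH1 and at 2.23 to 3.99 times in the other libraries, and COL4A1 was at 0.573 of COL4A2 in TH1 and at 0.860 to 1.07 elsewhere. COL6A1 over COL6A2, in contrast, was 0.942 in TH1 and 0.761 to 0.954 elsewhere. COL6A3 over COL6A2 set other libraries apart, at 0.441 in TH2 and 0.387 and 0.498 in YH, against 0.182 to 0.235 in TH1, TL and YL.

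**Figure D5:**
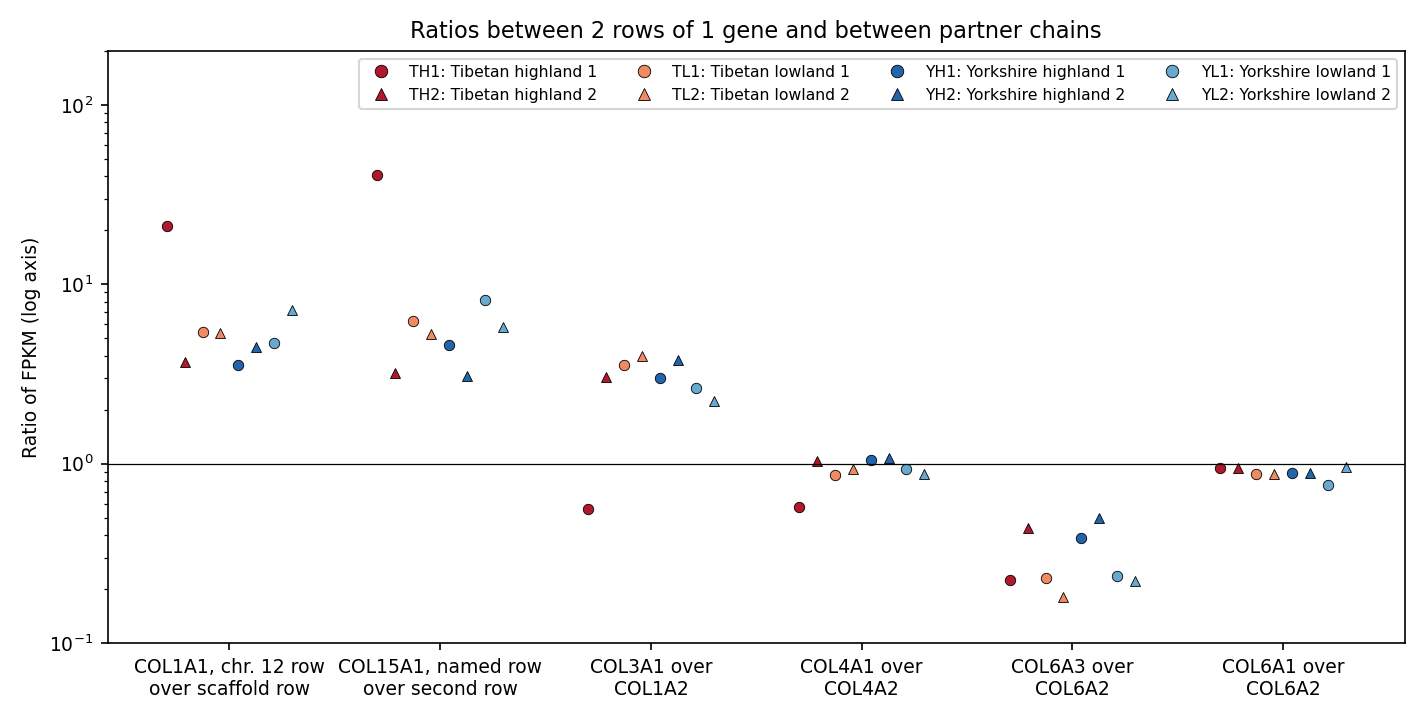
Ratio of FPKM (log axis) between 2 rows of 1 gene and between partner chains, with 1 point per library, coloured by group and shaped by replicate number. TH1 stands apart for the rows of COL1A1 (21.1) and of COL15A1 (40.7), and for COL3A1 over COL1A2 (0.556), but not for COL6A1 over COL6A2 (0.942).

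Other matrix genes were also low in TH1 and others were not. SPARC had 19.6 FPKM in TH1 and 187 in TH2 on its higher row, and TIMP3, an inhibitor of matrix proteases, 1.70 and 34.3. In contrast BGN, the proteoglycan biglycan, had 258 and 178, and VIM, vimentin, 324 and 337. Of the 10 fibroblast markers, 6 were higher in TH2 than in TH1 by more than 1 on the log2 scale, with a median difference of 1.12. Of the 6 endothelial markers 3 were, with a median of 0.89. VWF, the von Willebrand factor of endothelial cells, had 1.07 FPKM in TH1 and 22.8 in TH2 and EMCN, endomucin, 6.72 and 22.2, whereas PECAM1, an adhesion molecule of these cells, had 96.8 and 84.5. Their part in the low collagen levels of TH1 was not tested. Across all genes tested, the difference of TH1 from the mean of the other libraries had a Spearman correlation of 0.09 with the size of the gene, taken as scaled reads per FPKM, which is a description over 11913 genes that share the same libraries. TH1 also had the largest mitochondrial share of FPKM, 87.6%, against 57.7% to 80.3% in the other libraries, and the part of this in its collagen levels was not tested.

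The fibrillar genes shared their pattern with most other members. The mean log2(FPKM + 1) of COL3A1, the chromosome 12 row of COL1A1 and COL1A2 had a Pearson correlation over the 8 libraries of 0.94 with COL5A2, 0.93 with COL6A1 and COL16A1, 0.92 with COL5A1 and COL6A2, and 0.91 with COL14A1. It was lower with COL4A2, at 0.63, and lowest with COL5A3, at 0.15. Of 4149 other tested genes with a mean of at least 10 FPKM, those most like it included ENSSSCG00000021943 (r = 0.99), SNORA46 (0.97), YWHAZ (0.95), ENSSSCG00000029074 (0.94) and MARCKS (0.93). The value for SNORA46, a small nucleolar RNA, rests on 1 read in each of TH2, TL1 and TL2 and none elsewhere. The points share libraries in which TH1 is low and TL is high, and no test was made.

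The genes that process collagen were described by lists. Over all 11913 genes tested, 6153 had a log2 fold change above 0 in TL to YL, with a median of 0.02, and 5663 in TH to YH, with a median of -0.03. Limma called 0.00839% of all genes in TL to YL, 0.0336% in TH to YH, 0.0504% in TH to TL and 0% in YH to YL, and the counts of called genes below stand against these shares. Enzymes and chaperones that modify and fold procollagen had 17 tested rows, of which 14 had a log2 fold change above 0 in TL to YL with a median of 0.18, and 15 in TH to YH with a median of 0.27, and limma called 0 in each of these 4 comparisons. SERPINH1, the collagen chaperone HSP47 and the most abundant of them, had 168 and 229 FPKM in TH against 171 and 151 in TL, and 89.5 and 133 in YH against 150 and 79.9 in YL. Its TL2 and YL1 libraries were within 1 FPKM of each other, and TL lay above YL without a wide gap. The prolyl hydroxylase subunits P4HA2 and P4HA1 had 13.2 to 31.3 and 13.4 to 26.2 FPKM, and the prolyl 3-hydroxylase LEPRE1 had 11.4 to 20.7.

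Of the procollagen cleavage and cross-linking genes, LOXL1, BMP1 and PCOLCE were highest in TH, in TH1 as in TH2. LOXL1, a lysyl oxidase that cross-links matrix fibres, had 22.0 and 23.0 FPKM in TH against 5.001 and 5.71 in TL, and 3.49 and 4.72 in YH against 3.68 and 2.73 in YL, with a log2 fold change of TH to YH of 2.21 and an adjusted p of 0.0284 (limma), above the threshold of a call. BMP1, the protease that cuts off the end of procollagen, had 41.8 and 32.6 FPKM in TH and 10.16 to 20.2 in the other libraries. PCOLCE, which enhances that protease, had 66.7 and 54.8 in TH against 41.1 and 42.7 in TL, and 24.0 and 30.0 in YH against 22.3 and 23.7 in YL. LOXL2 had 2.56 to 17.1 FPKM, with its highest level in TH2. Over the 8 tested rows of this list the median log2 fold change was 0.66 in TH to YH and 0.27 in TL to YL, and limma called 0.

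Partners of fibril assembly were also higher in TL than in YL. Of 11 tested rows, 10 were higher in both TL than in both YL libraries, against 23.8% of all genes tested, with a median log2 fold change of 0.96. Limma called 0 of them. Decorin (DCN), a proteoglycan that coats fibrils, had 266 and 225 FPKM in TL, 152 and 103 in YL, 164 and 179 in YH, and 72.4 and 148 in TH. Biglycan differed, with TH above every other library, at 258 and 178 FPKM against 28.0 to 73.7.

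The list of collagen breakdown also holds its inhibitors TIMP1, TIMP3 and TIMP4. Of its 8 tested genes, 8 had a log2 fold change above 0 in TL to YL, with a median of 0.80, and 0 were called. TIMP3 was at 0.006, and 5 were higher in both TL than in both YL libraries, against 23.8% of all genes. MRC2, the receptor that takes up collagen fragments, had 94.5 and 590 FPKM in TH against 413 and 419 in TL, and 250 and 390 in YH against 40.0 and 34.1 in YL. It was lowest in both YL libraries, and its log2 fold change of TL to YL was 3.46 (adjusted p = 0.267, limma). MMP2, a gelatinase, had 12.02 to 52.2 FPKM, and TIMP1, a protease inhibitor, had 150 and 77.8 in TH against 8.42 to 41.0 elsewhere. Of 5 tested collagen receptors, 3 were above 0 in TL to YL with a median of 0.21. The integrin chains ITGB1 and ITGA1 had 50.1 to 152 and 15.5 to 25.5 FPKM, ITGA10 and ITGA11 stayed at or below 1.76, and 0 were called.

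Markers of some cell types were also higher in TL than in YL, and those of others were not. Their part in the collagen differences was not tested. Of the 10 fibroblast markers, 6 were higher in both TL than in both YL libraries, against 23.8% of all genes, and 0 were called. The sum over the 10 was 565 and 869 FPKM in TH against 812 and 743 in TL, and 511 and 607 in YH against 448 and 333 in YL, and 9 of the 10 had a log2 fold change above 0 in TL to YL, with a median of 0.82. The exceptions to separate libraries included PDPN, at 5.89 FPKM in YL1, its highest level, and TCF21, at 10.3 in YL2 against 8.26 in TL2. Heart muscle markers had a log2 fold change above 0 in TL to YL for 8 of 8, with a median of 0.63. Of the 8, 2 were higher in both TL than in both YL libraries. The heart muscle sum was low only in YL2, the library with kidney markers, at 15783 FPKM. It was 38338 in YL1, against 35493 and 38459 in TL. YL1 lay above both TL libraries for TNNI3, TNNT2, TNNC1 and RYR2, but not for MYL3, ACTC1, MYBPC3 and MYH6. Of the other cells of the heart, endothelial markers summed to 99.4 to 104 FPKM in YL against 147 to 186 in the other groups, and smooth muscle markers to 108 and 127 in YL, 174 and 217 in YH, 231 and 242 in TL and 335 and 369 in TH. In TL to YL, 4 of the 6 tested endothelial markers were above 0, with EMCN at -0.05 and TEK at -0.01. Leukocyte markers summed to 17.0 to 42.0 FPKM, with the highest sums in YH. Their median log2 fold change in TL to YL was -0.22, with 1 of 5 tested above 0. Markers of cartilage, tendon and valve summed to 2.48 to 10.5 FPKM, with 1 of 2 tested above 0 in TL to YL, and adipocyte markers to 0.431 to 3.403. TNMD, a tendon gene, was listed at 0 in 7 libraries, ACAN, of cartilage, in 7 and LEP, of fat cells, in 7.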

How the data were processed

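Heart RNA of 8 pools was sequenced by the authors, and reads were aligned to Sscrofa10.2 (the processing notes name Bowtie 0.12.5, TopHat2 2.0.9 and DESeq 1.10.1). The authors deposited a table with an FPKM per gene and library. Beside it the authors deposited a signal, named a count, which holds the reads of a gene scaled by a factor for each library. When divided by the worth of 1 read in its library, it gave 99.8% to 99.9% of the low values (up to 20 reads) as whole within 0.1 reads, and this division, rounded, gave the reads printed here. Columns with group means and ratios of groups, and the separate files of each group, hold the authors' summaries and were not used.

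Groups were taken from the titles. A linear model of log2(FPKM + 1) with a term per group was fitted to all 8 libraries with limma 3.58.1 in R 4.3.3, with a variance trend, for genes that reach 1 FPKM in 2 or more libraries. A call needed a Benjamini-Hochberg adjusted p under 0.01 over all genes tested and an absolute log2 fold change above 1. DESeq was not rerun and no count model was fitted, since a small share of the recovered reads is not whole; the scaled reads entered an alternative fit on the log2 scale. Tested on simulated data for TH to YH, the fit recovered 65% of 200 genes shifted by 3 on the log2 scale among 12366 genes, with 5 false calls.

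The members and the lists were chosen with earlier results of these data known. Given by library were members with a mean of at least 10 FPKM, the 3 further members with the largest fold change without overlap in each comparison, and members with an unadjusted p under 0.01. From each list the 4 genes with the highest mean were eligible to be named. The type IV rows of YL2, TNMD, ACAN and LEP were chosen after their values were seen. Of the 6 genes most like the fibrillar chains, not all are reported here. Symbols came from the table, and 26 of the 40 members carry the same symbol in a table of gene names, 13 have none there and 1 has another. Alternatives were a pseudocount of 0.1, no filter, 2 other scalings, no trend, a replicate block, a fit of only the 4 libraries compared, a threshold of 0.05 and each library left out. Scaled reads in place of FPKM and leaving out TH1 with YL2 were chosen after seeing the data. Figures were made with Python 3.11.15 and matplotlib 3.10.9.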

Additional observations from a re-analysis of the deposited data

Results flagged for a closer look

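For 3 collagen genes the difference between altitudes ran in opposite directions in the breeds, with no overlap between libraries in either breed. They are 3 of the 20 tested, a share near the 11.3% of all genes tested that show this. COL15A1 was lower in TH (55.3 and 43.7 FPKM) than in TL (77.2 and 70.0) and higher in YH (27.9 and 27.1) than in YL (20.6 and 18.3), and the interaction was -1.05 on the log2 scale (limma adjusted p = 0.347). This holds for the named row of COL15A1. In the second row, TH (1.36 and 13.6 FPKM) overlapped with TL (12.3 and 13.2), and the ratio of the named to the second row was 40.7 in TH1 and 3.06 to 8.14 in the other libraries. COL14A1 was lower in TH (2.76 and 6.38 FPKM) than in TL (10.7 and 10.18) and higher in YH (4.09 and 5.91) than in YL (3.33 and 3.66), with an interaction of -1.52 (limma adjusted p = 0.370). COL4A6 went the other way, with TH (1.67 and 1.40 FPKM) above TL (1.08 and 1.39) and YH (0.237 and 0.281) below YL (0.286 and 1.04), and an interaction of 0.55 (limma adjusted p = 0.606). None of the 3 passed the test of the interaction. The opposite directions rest on 2 libraries per group, and for COL4A6 the gaps between TH2 and TL2 (1.40 and 1.39 FPKM) and between YH2 and YL1 (0.281 and 0.286) are small. YL2, the other lowland library, is the one with high kidney markers.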

How the results depend on the processing

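With 2 pooled libraries a group, the spread is known only roughly. The median log2 fold change of the collagen genes in TL to YL and YH to YL kept its sign under every alternative run. That of TH to YH was -0.22 after scaling to the FPKM sum and ranged from -0.26 to 1.01 with a library left out. That of TH to TL was 0.41 without TH1 and YL2 and ranged from -0.77 to 0.41 with a library left out. The corresponding ranges were 1.005 to 1.235 in TL to YL and 0.21 to 0.68 in YH to YL, the latter without YH2 and without YH1. After scaling to the FPKM sum, TL to YL was 0.66. The median of the interaction was -0.47, and -0.01 without TH1, -0.83 after scaling to the FPKM sum and -0.74 with scaled reads. Of 21 differences of single collagen genes, 18 kept their direction under every alternative. After scaling to the FPKM sum, TH to YH was -0.10 for COL4A2, -0.13 for COL15A1, 0.30 for COL1A2 and 0.27 for COL4A6, and TL to YL was 0.80 for COL14A1, 0.52 for COL4A2, 0.88 for COL5A1, 0.35 for COL18A1 and 0.30 for COL28A1. For COL15A1, TH to TL was then -1.13 and the interaction -1.58. For COL3A1, TH to YH was 1.52 without TH1 and YL2 and ranged from -1.66 to 1.52 with a library left out. The cause was not tested.

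Counts over all genes moved more. In TH to YH, 4 genes were called, 31 at an adjusted p under 0.05 and 38 after scaling to the FPKM sum. In TL to YL, 1 was called, 97 after that scaling, 6 without TH1 and YL2, and 2 with only the 4 libraries compared. In TH to TL, 6 were called, 12 at 0.05, 30 after that scaling, and 11 with only the 4 libraries. In YH to YL, 0 were called (711 at an unadjusted p under 0.05, limma), 1 with a pseudocount of 0.1 and 69 after that scaling. For the interaction 4 were called, 40 after that scaling and 9 without TH1 and YL2. With scaled reads 0 were called in both breed comparisons, in TH to TL and for the interaction.

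With a library left out, the ranges were 3 to 6, 1 to 305, 4 to 13, 0 to 305 and 4 to 152 in the same order, and the highest counts came without YL1. The collagen genes called were 0 under every alternative, except that 1 was called in TL to YL without YL1 (range 0 to 1). Under the replicate block, which takes equal replicate numbers as paired, collagen medians stayed at 0.42, 1.20, -0.14 and 0.47 and 0 collagen genes were called. Nothing in the labels pairs the numbers, and deviations of equally numbered libraries correlated from -0.08 to 0.12.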
